A study of Mus musculus with 8 samples.

Results

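The collagens, laminins and integrins of mouse neural stem cells were taken as 1 module of matrix proteins and their receptors. Its members were all rows of the deposited gene table whose symbol names a collagen alpha chain, a laminin chain or an integrin subunit, whatever their level. This gave 81 members among 45777 genes, comprising 44 collagens, 11 laminins and 26 integrins. Of these, 55 passed the filter on low counts and entered the test together with all other passing genes, 17644 in total. A further 18 members had between 2 and 40 reads over all libraries and were not tested. The remaining 8 had 0 reads in every library, which allows up to 3 reads per library: Col10a1, Col3a1, Col1a2, Col6a5, Itgam, Itgax, Itgb6 and Itgad.

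RNA came from stem cells of the subventricular zone, the germinal layer beside the lateral ventricle. Per the labels, the cells were S1PR1-deficient (genotype given as an S1pr1 deletion) or control (genotype given as WT), and each genotype received high-density lipoprotein marked ApoM- or ApoM+, with 2 replicates for each pairing. S1PR1 is a receptor for sphingosine-1-phosphate, a lipid that apolipoprotein M carries on these particles. Strain, age, duration, dose and the means of deletion are not given in the labels, nor whether replicates came from separate cultures or animals, so the p-values below measure only the spread between these samples. The table names its libraries GH, GV, CH and CV, with the numbers 1 and 2. C was read as control, and G as S1PR1-deficient only by elimination. Which lipoprotein preparation H or V stands for is not given in the sources used here, so H against V has no known direction between ApoM+ and ApoM-.

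S1pr1 itself did not separate the genotype letters. It had 23.2 and 21.2 CPM (read counts scaled by TMM-adjusted library totals) in the GH libraries and 22.2 and 22.4 CPM in the GV libraries, against 25.4 and 23.2 CPM in the CH libraries and 20.7 and 16.0 CPM in the CV libraries. The G and C libraries overlapped, and the log2 fold change of G minus C was 0.08 with a standard error (SE) of 0.08 (adjusted p = 0.569, edgeR quasi-likelihood test). Which part of the gene was deleted is not given in the labels, so reads may come from exons outside it. That was not tested. S1pr1 levels thus give no check on reading G as S1PR1-deficient, which rests on elimination only. The libraries are therefore called by their letters throughout.

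Library totals ranged from 39619300 to 45698190 reads. Neural stem cell markers such as Nes (631 to 833 CPM), Slc1a3, Fabp7, Vim and Egfr were abundant. Others of that list were scarce, with Gfap between 0 and 0.852 CPM, Prom1 between 0.951 and 2.60 CPM and Hes5 between 1.25 and 3.29 CPM. The 12 markers of that list summed to between 5513 and 5918 CPM in G libraries and between 6271 and 6342 CPM in C libraries. The neuroblast and neuron list summed to between 1188 and 1414 CPM in G libraries and between 1091 and 1249 CPM in C libraries, nearly all of it Map2, while Dcx and Dlx2 reached at most 1.21 and 0.843 CPM. The 7 endothelial markers summed to between 2.26 and 3.07 CPM in G libraries and between 3.05 and 4.48 CPM in C libraries. The 8 pericyte and fibroblast markers summed to between 0.851 and 1.40 CPM in G libraries and between 1.77 and 8.43 CPM in C libraries, the 5 choroid plexus markers to between 4.9996 and 7.21 CPM in G libraries and between 7.36 and 9.72 CPM in C libraries, and the 7 microglial markers to at most 0.286 CPM in G libraries and 0.300 CPM in C libraries. The mature astrocyte list summed to between 489 and 523 CPM in G libraries and between 585 and 654 CPM in C libraries. Small structural RNAs took between 1.92% and 3.22% of reads in G libraries and between 4.07% and 4.83% in C libraries. In such bulk samples, fewer cells of a type and less RNA per cell cannot be told apart.

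Laminins are cross-shaped trimers of an alpha, a beta and a gamma chain, and type IV collagens are trimers of alpha chains. Both polymerise into networks that, joined by nidogens and heparan sulfate proteoglycans, form basement membranes. Integrins are heterodimers of an alpha and a beta subunit that bind these ligands outside the cell and link them to actin inside through talin, kindlin and vinculin. In the subventricular zone, stem cells contact laminin-rich deposits and the basement membrane of blood vessels, and laminin-binding integrins are known to take part in that adhesion.

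To compare levels between genes, CPM was divided by the exon length in kilobases of the GENCODE M21 annotation (build GRCm38). On this per-length scale the integrin receptors led. Itgb1 (chr8:128685654-128733200, plus strand), the shared beta subunit of most collagen and laminin receptors, averaged 211 CPM per kb over the 8 libraries. It was followed among integrins by Itgav at 32.3 CPM per kb, the alpha subunit of receptors for vitronectin and latent TGF-beta. Itga6, a laminin-binding alpha subunit, averaged 27.5 CPM per kb. Itga4, which binds VCAM1 and fibronectin, averaged 14.1 CPM per kb, close to Itgb8 at 13.9 CPM per kb, the partner of Itgav in activating latent TGF-beta. Their ranges over libraries overlapped, from 12.3 to 15.6 CPM per kb for Itga4 and from 11.96 to 16.4 CPM per kb for Itgb8. Itgb5, another partner of Itgav, averaged 10.1 CPM per kb, and Itga5, the fibronectin receptor's alpha subunit, 6.32 CPM per kb.

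Among the laminin chains, Lamc1 averaged 47.9 CPM per kb, Lama5 21.4 CPM per kb, Lamb1 8.55 CPM per kb and Lamb2 7.92 CPM per kb. These are 1 gamma, 1 alpha and both common beta chains, so transcripts of all 3 kinds of chain were present. The other alpha chains were lower per length, at 2.07 CPM per kb for Lama4, 1.12 CPM per kb for Lama1, 0.147 CPM per kb for Lama2 and 0.0283 CPM per kb for Lama3. Among collagens, Col4a5 led with 8.55 CPM per kb, followed by Col5a2 (type V, a regulator of fibril assembly) with 7.40 CPM per kb and Col18a1 (the basement membrane precursor of endostatin) with 5.49 CPM per kb. Col16a1, a fibril-associated collagen, averaged 4.23 CPM per kb, Col4a1 3.76 CPM per kb and Col5a1 3.61 CPM per kb. Type I and III fibrillar collagen was close to absent: Col1a2 and Col3a1 had 0 reads, and Col1a1 had 9 reads over all libraries. Leukocyte integrins were scarce, with 0 reads for Itgam, Itgax and Itgad, 40 reads in all for Itgal, 57 for Itgae and 121 for the shared beta subunit Itgb2.

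**Figure D1:**
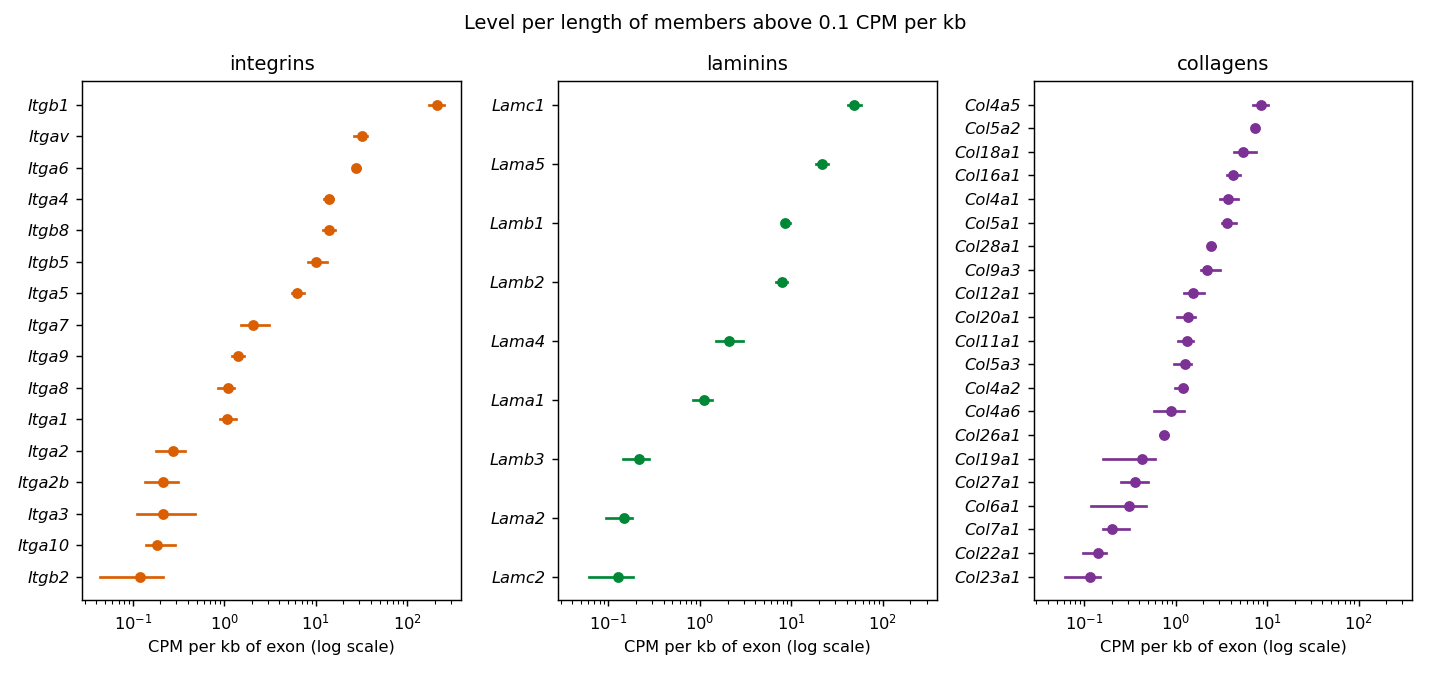
Level of each member above 0.1 CPM per kb, on a log axis, with the dot at the mean and the line from the lowest to the highest of the 8 libraries. Itgb1 stands above all other members at 211 CPM per kb, and Lamc1 and Col4a5 lead the laminins and collagens.

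Type IV collagen genes lie head to head in pairs, and their start regions are shown because not all paired chains shared a call below. The start sites of Col4a5 (plus strand) and Col4a6 (minus strand) are 1343 bases apart on chromosome X. Those of Col4a2 (plus strand) and Col4a1 (minus strand), on chromosome 8, cross by 21 bases, so that these genes overlap at their ends on opposite strands. Whether reads were counted by strand is not given in the sources used here, so reads from that overlap cannot be assigned to either gene with certainty. The windows run from 250 bases before to 50 bases after each RefSeq start (build GRCm38.p6) at chrX:141475169-141475468 for Col4a5, chrX:141474027-141474326 for Col4a6, chr8:11312777-11313076 for Col4a1 and chr8:11312555-11312854 for Col4a2. Capitals mark matches, on either strand, to the GC box (GGGCGG), the CCAAT box (CCAAT), a TEAD motif (GGAATG), an AP-1 motif (TGANTCA) or the TATA box (TATAAA), none of which overlapped another match.
Col4a5: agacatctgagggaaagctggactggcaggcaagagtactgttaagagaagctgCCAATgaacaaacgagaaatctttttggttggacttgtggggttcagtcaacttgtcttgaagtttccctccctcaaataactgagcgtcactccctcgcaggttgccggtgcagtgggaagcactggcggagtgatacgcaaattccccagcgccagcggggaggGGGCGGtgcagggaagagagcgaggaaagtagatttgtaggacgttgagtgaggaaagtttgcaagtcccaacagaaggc
Col4a6: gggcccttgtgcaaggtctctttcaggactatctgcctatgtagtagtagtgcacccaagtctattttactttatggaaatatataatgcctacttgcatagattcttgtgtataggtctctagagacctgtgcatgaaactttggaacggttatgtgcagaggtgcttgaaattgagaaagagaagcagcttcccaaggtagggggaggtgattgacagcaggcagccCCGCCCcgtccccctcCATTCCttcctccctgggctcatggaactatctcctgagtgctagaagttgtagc
Col4a1: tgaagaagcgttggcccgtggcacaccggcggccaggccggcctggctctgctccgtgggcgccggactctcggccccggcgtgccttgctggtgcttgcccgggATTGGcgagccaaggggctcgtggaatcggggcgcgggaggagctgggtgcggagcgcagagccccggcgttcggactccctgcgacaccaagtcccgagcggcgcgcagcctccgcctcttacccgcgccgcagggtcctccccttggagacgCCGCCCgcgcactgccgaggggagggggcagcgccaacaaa
Col4a2: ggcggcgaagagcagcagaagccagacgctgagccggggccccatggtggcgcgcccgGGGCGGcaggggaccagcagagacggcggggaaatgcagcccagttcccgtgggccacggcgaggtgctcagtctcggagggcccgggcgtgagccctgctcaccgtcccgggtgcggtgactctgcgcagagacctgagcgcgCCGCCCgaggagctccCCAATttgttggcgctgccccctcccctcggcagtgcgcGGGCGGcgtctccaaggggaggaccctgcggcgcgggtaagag
Each window held at least 1 GC box, and Col4a2 held 3. A CCAAT box was present for Col4a5, Col4a1 and Col4a2, and a TEAD motif for Col4a6. Across all 32851 RefSeq windows of this length, 35.7% held the GC box, 37.4% the CCAAT box, 14.7% the TEAD motif, 7.81% the AP-1 motif and 13.6% the TATA box. The last pair of motifs was not found in these windows. A match is a run of letters only, and windows were found for 58 of the 81 members.

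In the C libraries, 9 members were higher with H than with V and 0 were lower, and they included both receptors and ligands. Of all genes tested, 5.68% were called higher and 4.99% lower in this comparison, 10.7% in either direction, against 16.4% of the 55 tested members. The median log2 fold change of the tested members was 0.11, and that of all genes -0.01. Calls are an adjusted p under 0.05 in the edgeR quasi-likelihood test.

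Among the receptors, Itgb1 had 969 and 1024 CPM in the CH libraries, against 755 and 701 CPM in the CV libraries. The CH values lie above both CV values, and the log2 fold change was 0.45 (SE 0.0561, adjusted p = 0.000957). Itgav had 381 and 394 CPM in the CH libraries, against 288 and 281 CPM in the CV libraries, a log2 fold change of 0.45 (SE 0.0543, adjusted p = 0.000904). The common beta subunit and this alpha subunit, which can pair, thus differed by nearly equal folds and with no overlap. Itga7, a laminin-binding alpha subunit best known from muscle, had 25.0 and 18.6 CPM in the CH libraries, against 12.4 and 12.8 CPM in the CV libraries (log2 fold change 0.79, SE 0.136, adjusted p = 0.0051). Itga3, a further laminin-binding subunit, was scarce, with 2.73 and 1.86 CPM in the CH libraries, against 0.925 and 0.638 CPM in the CV libraries (log2 fold change 1.55, SE 0.354, adjusted p = 0.0179). Itga6 went the other way in value, at 237 and 238 CPM in the CH libraries, against 276 and 257 CPM in the CV libraries, and was not called. DESeq2 called 9 members higher and 1 lower: it added Itga6 as lower and Lamc1 as higher, and gave no adjusted p for Itga3. The start windows of the 2 integrin genes with the smallest p, at chr8:128685404-128685703 for Itgb1 and chr2:83724147-83724446 for Itgav (both plus strand), are shown with the same 5 motifs in capitals.
Itgb1: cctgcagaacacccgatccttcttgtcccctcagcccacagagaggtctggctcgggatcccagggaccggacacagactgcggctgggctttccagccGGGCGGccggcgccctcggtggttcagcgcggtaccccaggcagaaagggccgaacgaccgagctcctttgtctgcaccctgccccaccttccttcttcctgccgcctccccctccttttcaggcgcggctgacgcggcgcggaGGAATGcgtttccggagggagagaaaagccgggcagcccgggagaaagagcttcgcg
Itgav: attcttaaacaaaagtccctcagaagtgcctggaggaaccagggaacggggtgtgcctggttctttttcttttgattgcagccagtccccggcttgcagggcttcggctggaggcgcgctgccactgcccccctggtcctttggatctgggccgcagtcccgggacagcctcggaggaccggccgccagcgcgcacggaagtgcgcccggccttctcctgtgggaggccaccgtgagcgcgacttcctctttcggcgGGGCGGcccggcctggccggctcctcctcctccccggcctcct
Each held 1 GC box, and Itgb1 also held 1 TEAD motif.

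Among the ligands, Lama4 (chr10:38965515-39110188), the alpha chain typical of vessel and mesenchymal laminins, had 35.2 and 31.3 CPM in the CH libraries, against 18.5 and 18.2 CPM in the CV libraries. This was the smallest p of any member, with a log2 fold change of 0.86 (SE 0.0875, adjusted p = 0.000335). The 9 other tested laminin chains were not called in this test. The X-linked type IV pair moved together. Col4a5 had 69.0 and 68.2 CPM in the CH libraries, against 49.4 and 47.5 CPM in the CV libraries (log2 fold change 0.50, SE 0.0692, adjusted p = 0.00164). Col4a6 had 9.76 and 8.26 CPM in the CH libraries, against 4.60 and 5.47 CPM in the CV libraries (log2 fold change 0.84, SE 0.161, adjusted p = 0.00844). Its head-to-head neighbour thus changed in the same direction, whereas neither Col4a1 nor Col4a2 was called. Col4a1 had 32.0 and 26.2 CPM in the CH libraries, against 35.6 and 30.9 CPM in the CV libraries. Col18a1 had 52.5 and 46.8 CPM in the CH libraries, against 33.1 and 34.6 CPM in the CV libraries (log2 fold change 0.55, SE 0.0806, adjusted p = 0.0023). Col12a1, a fibril-associated collagen, had 30.5 and 31.1 CPM in the CH libraries, against 20.2 and 18.6 CPM in the CV libraries (log2 fold change 0.67, SE 0.121, adjusted p = 0.00629). For every called member, both CH libraries lay above both CV libraries. The calls rest on these same libraries, so this adds no support to them. It also held for members that were not called, such as Lamc1 and Itga1. The share of all genes with that order was not computed.

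**Figure D2:**
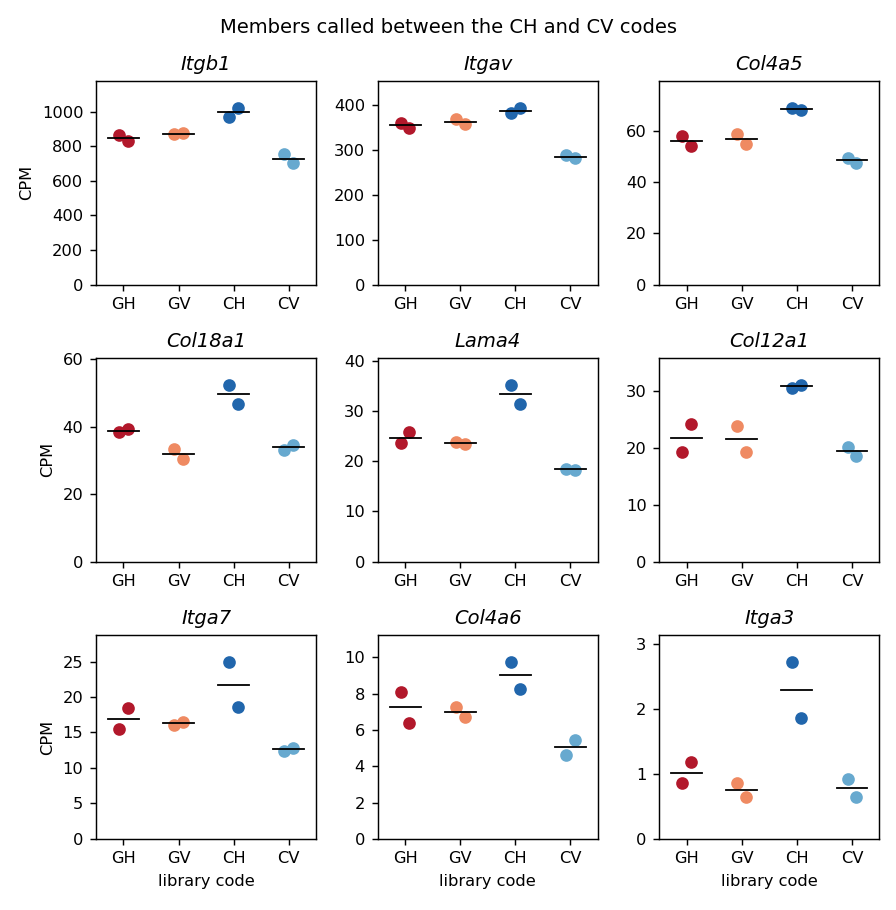
CPM of members called in H against V within the C libraries, with 1 point per library and the codes in the order GH, GV, CH and CV. The CH points lie above the CV points in each panel, for example 969 and 1024 against 755 and 701 CPM for Itgb1. The panels were picked by calls on these same libraries.

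The remaining 46 tested members were not called in the C libraries. Beside these differences, the summed pericyte and fibroblast markers were at 8.43 and 5.68 CPM in the CH libraries, against 1.77 and 1.94 CPM in the CV libraries, mostly through Acta2 (log2 fold change 2.01). Of the other 7 markers of that list, all stayed under 1 CPM, and Pdgfrb, Lum and Col1a2 had 0 reads. The endothelial markers summed to 4.48 and 4.46 CPM in the CH libraries, against 3.16 and 3.05 CPM in the CV libraries, with Cdh5 and Cldn5 at most 0.176 and 0.0514 CPM in any library. S1pr1 was also higher in CH than in CV, with a log2 fold change of 0.40 (adjusted p = 0.0433). Oligodendrocyte lineage markers summed to 645 and 630 CPM in the CH libraries, against 780 and 798 CPM in the CV libraries, and the part of these marker shifts in the member differences was not tested. With 1 library left out, Itga3 lost its call without CH1, CH2 or CV2 (adjusted p = 0.0964, 0.056 and 0.137), and Lama1 and Lama5 gained one, as lower, without CH1. The call was also lost for Col12a1 without CH2 or CV2 (0.0625 and 0.0836), Itga7 without CV2 (0.0556) and Col4a6 without CV1 (0.065). A test against a fold of at least 1.5 called 0 members in this or any other comparison below.

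In the G libraries, 0 of the 55 tested members were called between H and V by edgeR's quasi-likelihood test. Of all genes, 1.28% were called, 1.14% higher and 0.136% lower. At an unadjusted p under 0.05 there were 5 members (Itgb8, Itga8, Col18a1, Col5a3 and Col27a1), and DESeq2 called 1, Itgb8. Itgb1 had 865 and 831 CPM in the GH libraries, against 869 and 875 CPM in the GV libraries. Lama4 had 23.7 and 25.7 CPM in the GH libraries, against 23.7 and 23.4 CPM in the GV libraries. Col4a5 had 57.8 and 54.0 CPM in the GH libraries, against 58.6 and 55.0 CPM in the GV libraries. These G values lie between those of CH and CV for all 3 genes. All 3 were called between CH and CV, so those codes were known to lie apart. The order is thus no separate result, and the share of all genes with it was not computed. Itgb8 had the smallest p, with 156 and 145 CPM in the GH libraries, against 181 and 177 CPM in the GV libraries, a log2 fold change of -0.25 (SE 0.0615, adjusted p = 0.0668).

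The difference between these responses, H minus V in G less H minus V in C, was called for 8 members, all negative, in the edgeR quasi-likelihood test. Of all genes tested, 7.35% were called for this difference, 3.41% in the negative and 3.93% in the positive direction. A negative value means that H stood lower relative to V in G than in C libraries. Lama4 had the largest size, at -0.79 on the log2 scale (SE 0.123, adjusted p = 0.00797). Itgb1 differed by -0.49 (SE 0.0793, adjusted p = 0.00961), Itgav by -0.48 (SE 0.0767, adjusted p = 0.00958) and Col4a5 by -0.53 (SE 0.0977, adjusted p = 0.0134). These 4 genes also had the smallest p in the C libraries alone, and both comparisons use the same CH and CV libraries. Col12a1 differed by -0.67 (adjusted p = 0.0377) and Itga7 by -0.73 (adjusted p = 0.0398).

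The other 2 members called for the difference, Itgb8 and Itga8, were called in neither H against V comparison. Itgb8 had a difference of -0.37 (adjusted p = 0.0279), with 151 and 146 CPM in the CH libraries, against 142 and 132 CPM in the CV libraries. Itga8, the nephronectin-binding alpha subunit, had 7.35 and 6.26 CPM in the GH libraries, against 9.29 and 9.43 CPM in the GV libraries. Its values were 8.41 and 8.57 CPM in the CH libraries, against 7.35 and 7.56 CPM in the CV libraries. The 2 code pairs thus stood in opposite order, and the difference was -0.65 (SE 0.178, adjusted p = 0.0472). The count of 8 fell to 0 without CV2 or GH1, to 1 without GH2, to 4 without GV1 and to 5 without CH1, CH2 or CV1. Without CH1, Col12a1, Itgb8, Itga7 and Itga8 lost the call, and Lama1 gained one with a positive difference. The CV libraries lay below all 6 others for Itgb1, Itgav, Itgb8, Itga7, Lama4, Lama3, Col4a5 and Col4a6. They lay above all 6 for Itga6, Itgae, Lama5, Lama1 and Col26a1. Members of both kinds were named after their values were seen, and the share of all genes that do so was not computed. The list therefore does not set the members apart from other genes. Lama3 and Itgae had at most 26 and 16 reads in any library.

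**Figure D3:**
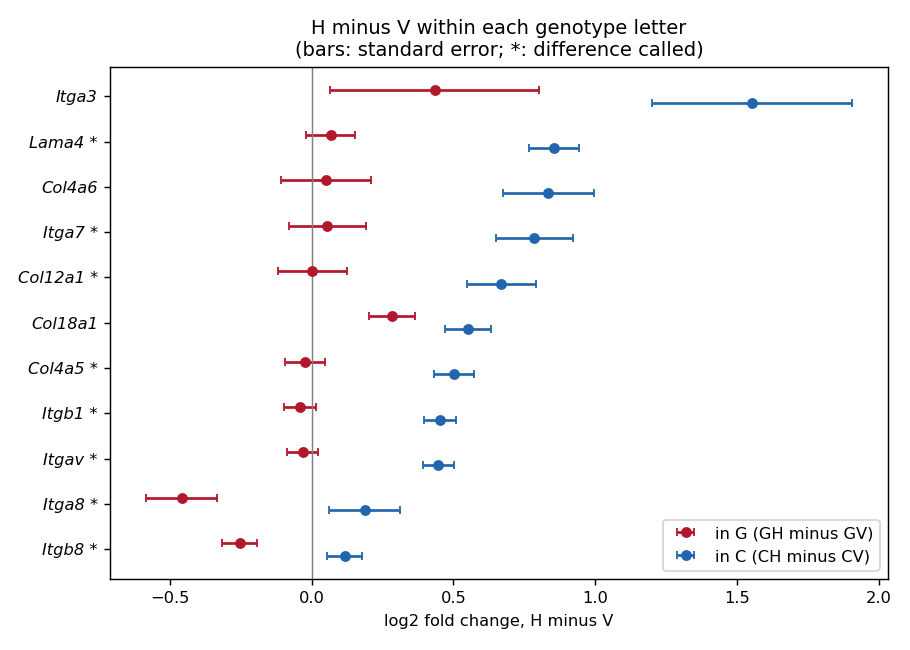
Log2 fold change of H minus V for named members, in G libraries (red, upper marker) and in C libraries (blue, lower marker), with bars of 1 standard error and an asterisk where the difference between them was called. For Itgb1, Itgav, Lama4 and Col4a5 the C markers lie to the right of 0 and the G markers near 0.

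Over both H and V, 4 laminin chains, 3 collagens and Itgb5 were lower in G than in C libraries, and Itga4 and Itgb8 were higher. In total 10 members were called for G minus C, 8 lower and 2 higher, in the edgeR quasi-likelihood test. This is 18.2% of the tested members and close to the 19.2% of all genes called in this comparison, so the share by itself sets the members apart from no other genes. Of all genes, 10.2% were lower and 9.03% higher. Of the 10 tested laminins, 4 were lower and 0 higher, of the 26 tested collagens 3 were lower and 0 higher, and of the 19 tested integrins 1 was lower and 2 were higher. The median log2 fold change of the tested members was -0.04, and that of all genes -0.01.

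Lamb2 had 47.2, 43.5, 41.6 and 42.4 CPM in G libraries, against 53.1, 51.4, 54.1 and 51.8 CPM in C libraries, each listed as H1, H2, V1 and V2. All G values lay below all C values, and the log2 fold change was -0.27 (SE 0.0502, adjusted p = 0.00361). Lamb1, the other common beta chain, averaged 79.4 ± 0.778 CPM in G libraries and 90.2 ± 3.61 CPM in C libraries (SD, n = 4 each), also without overlap, with a log2 fold change of -0.18 (adjusted p = 0.0142). Each SD over 4 libraries here pools H and V, so it is not a spread between replicates alone. Lama5, the alpha chain abundant in mature basement membranes, averaged 220 ± 8.91 CPM in G libraries and 267 ± 26.2 CPM in C libraries (SD, n = 4 each). Its log2 fold change was -0.28 (SE 0.0554, adjusted p = 0.0051), and the highest G library, at 229.31 CPM, passed the lowest C library, at 228.95 CPM. Lamc1, the shared gamma chain, averaged 373 ± 20.4 CPM in G libraries and 419 ± 42.9 CPM in C libraries (SD, n = 4 each), with overlap and a log2 fold change of -0.16 (adjusted p = 0.0328). The 4 chains are thus the 4 with the highest level per length in the family. They also had the most reads, and the fold changes of scarcer chains were less sharply measured. The SE was 0.221 for Lamb3, which was not called, against 0.0502 for Lamb2. The calls therefore do not set these chains apart from scarcer ones. With each library left out in turn, Lama5 and Lamb2 kept the call every time. Lamb1 lost it without CH1, CV2, GH1 or GH2, and Lamc1 lost it without CH1, CV1, GH1, GH2 or GV2.

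Among collagens, Col4a1 averaged 24.9 ± 1.80 CPM in G libraries and 31.2 ± 3.87 CPM in C libraries (SD, n = 4 each), with a log2 fold change of -0.32 (SE 0.0806, adjusted p = 0.0163). Its partner Col4a2, which joins it in the common type IV trimer, had 6.54, 6.76, 8.43 and 7.38 CPM in G libraries, against 8.78, 8.37, 8.28 and 8.59 CPM in C libraries. Col4a2 was not called, though its log2 fold change of -0.23 (SE 0.0888) had the same direction. Whether these chains differ from each other was not tested. Col18a1 fell by 0.22 on the log2 scale (adjusted p = 0.019) and Col16a1 fell by 0.23 (adjusted p = 0.0444). For all 3 called collagens the G and C libraries overlapped, and all 3 lost the call without CH1 or without GH1. Col18a1 also lost it without CV2, GH2 or GV2, and Col4a1 without CV1. Col16a1 also lost it without CV1, CV2, GV1 or GV2 and with other scaling factors (adjusted p = 0.0521 with DESeq2 size factors and 0.0502 with upper-quartile factors).

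Among integrins, Itgb5 had 33.1, 33.3, 31.3 and 29.6 CPM in G libraries, against 47.2, 37.3, 38.2 and 37.2 CPM in C libraries. No G value reached a C value, and the log2 fold change was -0.33 (SE 0.0701, adjusted p = 0.00738). Itga4 had 207, 207, 218 and 208 CPM in G libraries, against 181, 194, 189 and 172 CPM in C libraries. It was higher in every G library than in any C library, with a log2 fold change of 0.19 (SE 0.045, adjusted p = 0.0113). That call was lost without CV2, GH1 or GH2. Itgb8 was also called higher, at 0.20 (SE 0.0435, adjusted p = 0.00748), with overlap, since GH2 at 145 CPM lay below CH1 at 151 CPM. Its call was lost without GH1. Itgb1 averaged 860 ± 19.8 CPM in G libraries and 862 ± 158 CPM in C libraries (SD, n = 4 each), and was not called over both letters. Its SD in C libraries spans the CH and CV values, which were called apart. The count of 10 fell to 3 without GH1, to 5 without CH1 and to 6 without GH2. The share of small structural RNAs and the summed neural stem cell, astrocyte, pericyte and fibroblast, and choroid plexus markers were lower in every G than in any C library, as given above, and their part in these differences was not tested. A fit on nuclear protein-coding genes alone, which holds no such RNAs, called 11 members. That fit changes only the genes and totals used, and does not test the part of these shifts.

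**Figure D4:**
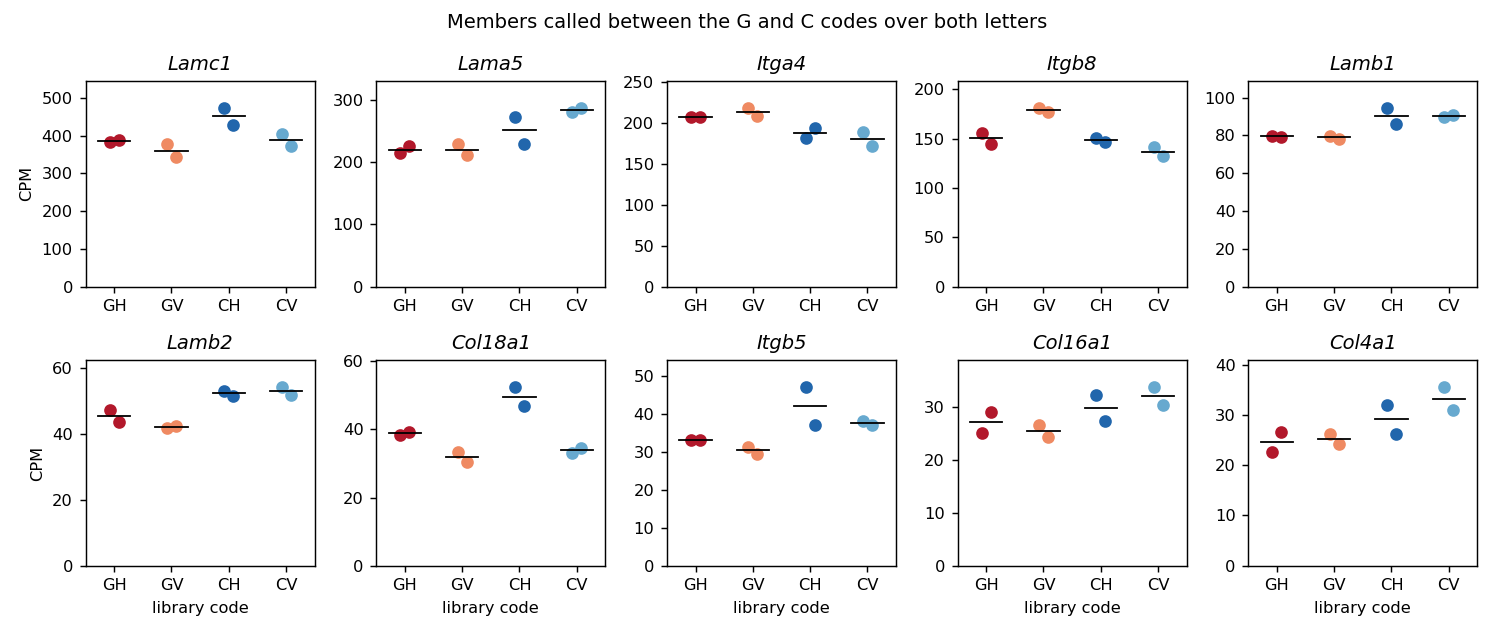
CPM of the members called in G against C over both H and V, with 1 point per library and codes in the order GH, GV, CH and CV. For Lamb2, Lamb1 and Itgb5 all G points lie below all C points, and for Itga4 all lie above.

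Within H, 2 members were called between G and C in the edgeR quasi-likelihood test, both lower. Of all genes, 1.81% were called here, 1.05% lower and 0.759% higher. Lama4, with 23.7 and 25.7 CPM in the GH libraries, against 35.2 and 31.3 CPM in the CH libraries, fell by 0.43 on the log2 scale (adjusted p = 0.0276). Col18a1, with 38.5 and 39.2 CPM in the GH libraries, against 52.5 and 46.8 CPM in the CH libraries, fell by 0.35 (adjusted p = 0.0461). Both GH libraries lay below both CH libraries for each of these genes, which adds no support to calls that rest on the same libraries. The count was 0 without CH1, CV2, GH1 or GH2, 1 without CV1, and 5 without GV1 or GV2.

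Within V, 14 members were called between G and C in the same test, 7 higher and 7 lower. Of all genes, 25% were called, 11.6% higher and 13.4% lower, so the members' share of 25.5% is near the background. The higher ones were the integrins Itgav (log2 fold change 0.35), Itgb8 (0.39), Itgb1 (0.26) and Itga4 (0.24), the laminin Lama4 (0.36) and the collagens Col4a5 (0.23) and Col4a6 (0.47), with adjusted p between 0.00091 and 0.0497. The lower ones were Lamb2 (-0.33), Lama5 (-0.37), Lamb1 (-0.19), Col4a1 (-0.40), Col5a3 (-0.43), Col16a1 (-0.33) and Itgb5 (-0.31), with adjusted p between 0.00509 and 0.0477. Lama4 was thus lower in G under H and higher in G under V. The 2 comparisons have no library in common, and the difference between their effects is the -0.79 given above. DESeq2 called 12 members, losing Col4a6, Col5a3 and Lamb1 and adding Itga7. The 2 other scalings each called 12, losing Itgb5 and Lamb1. Col19a1, not among the 14, gained a call as higher without CV2. The count of 14 fell to 5 without CV2 or GV1, to 7 without CV1 and to 9 without GV2.

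Genes that make, cut, bind or signal from the matrix were read from 6 lists in the same fits. For G minus C over both letters, the integrin adaptors and signalling list had 12 of 34 tested genes lower and 0 higher. They included Flna, an actin crosslinker that binds integrin tails, at 310, 318, 307 and 300.3 CPM in G libraries, against 425, 401, 378 and 374 CPM in C libraries (log2 fold change -0.35), as well as Actn4 (-0.38) and Tns2 (-0.69). Other integrin ligands had 6 of 21 lower and 0 higher. Fibronectin, Fn1, had 15.2, 16.3, 15.3 and 13.8 CPM in G libraries, against 32.5, 24.2, 20.9 and 20.5 CPM in C libraries (log2 fold change -0.67, adjusted p = 0.000637). Emilin1 (-0.39) and Thbs1 (-0.39) fell as well. Other basement membrane genes had 4 of 16 lower and 0 higher, among them perlecan, Hspg2 (-0.29), nidogen-2, Nid2 (-0.24), and Ntn4 (-0.16).

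For the same comparison, collagen synthesis and processing genes had 1 of 27 higher and 2 lower. Serpinh1, the collagen chaperone, fell by 0.49 on the log2 scale, Ppib, a prolyl isomerase, fell by 0.20, and Loxl2, a collagen crosslinking oxidase, rose by 0.47. Matrix proteases and their inhibitors had 6 of 28 higher and 3 lower. The metalloproteinase inhibitor Timp1 fell by 0.87, while the proteases Adamts5 and Mmp14 rose by 0.51 and 0.33. Non-integrin laminin and collagen receptors had 2 of 19 higher and 6 lower. Among them were Mrc2, a collagen uptake receptor, at -0.59 and the collagen-binding kinase Ddr2 at 0.23. Rpsa, a ribosomal protein gene also listed as a laminin receptor, was at -0.34. Against a background of 9.03% higher and 10.2% lower, the adaptor, ligand and basement membrane lists held only lower calls. The lists were chosen with earlier results of these data known, and these ones are singled out here by their direction. The comparison with the background is therefore no independent support. Calls in the lists were not recomputed with libraries left out.

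For H minus V in C libraries, where 5.68% of all genes were higher and 4.99% lower, each list held calls in both directions. Collagen synthesis and processing had 6 of 27 higher and 3 lower, with Plod2, a lysyl hydroxylase, at 76.6 and 79.4 CPM in the CH libraries, against 54.4 and 50.9 CPM in the CV libraries (log2 fold change 0.57), Adamts3 at 0.70 and Loxl2 at -0.95. Proteases and inhibitors had 6 of 28 higher and 2 lower, led by Timp1 (0.93), Timp3 (0.33) and Adam17 (0.32). Other integrin ligands had 4 of 21 higher and 1 lower. The matricellular Ccn1 had 20.1 and 21.2 CPM in the CH libraries, against 6.71 and 9.43 CPM in the CV libraries (log2 fold change 1.35), and Ccn2 rose by 1.13. L1cam had 0 and 0 reads in the CH libraries, against 5 and 16 reads in the CV libraries. The CV mean was 3.46-fold above a floor of 3 reads per CH library. It rests on few reads itself, so this fold is not a lower bound.

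Non-integrin receptors had 3 of 19 higher and 3 lower, with the syndecan Sdc4 at 181 and 173 CPM in the CH libraries, against 85.1 and 89.4 CPM in the CV libraries (log2 fold change 1.02), Sdc2 at 0.48 and Sdc3 at -0.46. The adaptor list had 4 of 34 higher and 3 lower, with Parvb at -1.03, Rap1a at 0.61 and Tns1 at -0.46. Other basement membrane genes had 1 of 16 higher and 2 lower, with agrin, Agrn, at -0.46, Smoc1 at -0.39 and Npnt at 0.33. In G libraries, H against V gave 1 call over all 6 lists, where 1.28% of all genes were called. This was the ribosomal protein gene Rpsa, also listed as a laminin receptor. It had 2003 and 1898 CPM in the GH libraries, against 1509 and 1698 CPM in the GV libraries. The log2 fold change was 0.28 (adjusted p = 0.0425, edgeR quasi-likelihood test).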

How the data were processed

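Total RNA of 8 libraries was extracted with a column kit and sequenced from ribosomal RNA-depleted, strand-marking libraries, per the labels' protocols. Tools listed in the submitters' processing notes, with no role given, were HISAT2 2.1.0, StringTie 2.1.3b, Trimmomatic and bcl2fastq 2.20.0, and the build was GRCm38 (mm10). The authors deposited a raw read count per gene and library, per the file headers, and these counts were used as deposited. Another 16 columns of derived values were not used. Whether reads were counted by strand is not given in the sources used here.

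Columns were matched to genotype by their first letter, and tested by edgeR 4.0.16 (R 4.3.3) with TMM scaling, filterByExpr (minimum count 10), a model of 4 code means and the quasi-likelihood test on all genes, with Benjamini-Hochberg adjustment over 17644 genes and a threshold of 0.05. CPM used the TMM-scaled totals, and SE is the log2 fold change divided by the root of F. The steps were tested on simulated data. The members and lists were chosen with earlier results of these data known. Named were the 5 most abundant members of each family, up to 10 called members per comparison by smallest p, and up to 3 called genes per list by size. Lists of other cell types served to check the samples and to give their summed levels beside the results. Alternatives were DESeq2 1.42.0, other scalings and filters, a replicate block, left-out libraries and a 1.5-fold threshold. Total counts between 39619300 and 45698190 per library leave members under about 1 CPM with few reads, and the 2 libraries per code leave 4 residual degrees of freedom.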

Additional observations from a re-analysis of the deposited data

Results flagged for a closer look

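Of 46 sets of 4 libraries examined for a value far from the others, 3 stood apart, where chance flags about 1 in 20. Itga4 was at 218 CPM in GV1, against 207 to 208 CPM in the other G libraries. Lama4 was at 25.7 CPM in GH2, against 23.4 to 23.7 CPM in the other G libraries. Itgb5 was at 47.2 CPM in CH1, against 37.2 to 38.2 CPM in the other C libraries.

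The response to H against V differed between G and C libraries for 8 members in the edgeR quasi-likelihood test of that difference. On the log2 scale the differences were -0.79 for Lama4, -0.48 for Itgav, -0.49 for Itgb1, -0.53 for Col4a5, -0.37 for Itgb8, -0.67 for Col12a1, -0.73 for Itga7 and -0.65 for Itga8.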

How the results depend on the processing

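Of 671 values of called members recomputed under the alternatives, 483 kept their direction and call, 188 kept their direction and lost the call, and 0 changed direction. The 43 values of the 1.5-fold test reuse the fold change of the main fit, so they could not change direction. Many of the 344 leave-one-out values drop a library outside their comparison. All values are of members already called in these same counts, so the 0 does not measure how sure a direction is. The fit on nuclear protein-coding genes and the one without both CV libraries were chosen after seeing the data. With a 1.5-fold threshold 0 members were called in each of the 6 comparisons, and 25, 14, 42, 13, 2 and 8 genes for G minus C over both letters, under H and under V, H minus V in C and in G, and their difference. For G minus C under H the 2 members became 7 with DESeq2, 4 with upper-quartile factors, 7 with no filter, 1 with the replicate block, 5 on nuclear protein-coding genes and 1 without both CV libraries, while the 320 genes became 567 with DESeq2, 552 with no filter and 203 with the block. For H minus V in G the 0 members became 1 (Itgb8) with DESeq2, with no filter and on nuclear protein-coding genes. Its 226 genes became 668, 575 and 440 in these, 31 with only the libraries compared, 137 with the block and 113 without both CV libraries. For the difference, 8 members became 5 with the block, and 1296 genes became 2022 with DESeq2. The cause was not tested.

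With 1 library left out, member calls ranged from 3 to 11 for G minus C over both letters, 0 to 5 under H, 5 to 14 under V, 6 to 10 for H minus V in C, 0 to 0 in G and 0 to 6 for the difference. Genes called ranged from 1585 to 3391, 45 to 415, 1950 to 4444, 255 to 2169, 8 to 843 and 56 to 1450, in the same order. The log2 fold change of S1pr1 for G minus C ranged from -0.011 without CV2 to 0.18 without CV1. The numbers 1 and 2 did not pair the libraries, since same-numbered deviations correlated between -0.04 and 0.04. With the replicate block as a term, 9 members were called for G minus C over both letters, 12 under V and 9 for H minus V in C. Members under about 1 CPM, such as Itgb2 with 121 reads in all, rest on few reads.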

Other observations

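Some matrix members that are better known from other tissues had reads in every library and were called in none of the 6 comparisons by the edgeR quasi-likelihood test. They were picked after their values were seen. Col28a1, known from glia of peripheral nerve, averaged 2.41 CPM per kb, Col9a3, a cartilage collagen, 2.22 CPM per kb, and Col11a1, also of cartilage, 1.33 CPM per kb. Itga9, a tenascin-binding subunit, averaged 1.42 CPM per kb and Itga1, a collagen-binding subunit, 1.08 CPM per kb. Itga1 was called higher for H minus V in C when nuclear protein-coding genes alone were fitted.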
